A study of Bos taurus with 15 samples.

Results

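The cleavage divisions of the bovine embryo, from 1 to 8 cells, were covered by 5 of the 15 arrays of the series: 2 arrays of 1-cell embryos and 1 array each of 2-cell, 4-cell and 8-cell embryos. These arrays were chosen by the stage in their titles, not by any measured value. The other 10 arrays, 3 each of oocytes, morulae and blastocysts and 1 of 16-cell embryos, served to estimate the spread and to show where a transcript stood before and after cleavage. All embryos were untreated cattle (Bos taurus) embryos made in vitro: oocytes with several layers of cumulus were aspirated from small follicles, matured with LH and FSH, fertilized with sperm in vitro, freed of cumulus cells by vortexing and cultured in SOF medium, per the labels' protocols. Total RNA was amplified in 3 rounds and hybridized to Affymetrix Bovine Genome arrays. The labels call the replicates biological and do not say how many embryos made up a sample. The question addressed here was which transcripts rose or fell steadily with each division.

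During these divisions the embryo does not grow, and it lives largely on messenger RNA that the oocyte stored. Stored transcripts are translated, masked or degraded on their own schedules, and the embryo's own genome is mostly silent at first. In cattle the major wave of embryonic transcription is generally placed around the 8- to 16-cell stage, so that the arrays studied end about where that wave begins.

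Each of 24016 probe sets, the groups of oligonucleotides that read 1 transcript each, gave a signal, an intensity on a linear scale that shows a transcript's share of the amplified RNA and not its amount per embryo. The trend was expressed as a slope, the change of log2(signal + 16) for each doubling of the number of cells, and fold changes are on the same scale, which understates changes of low signals. Slopes were tested with limma, a linear model fitted across all probe sets and all 15 arrays, and p-values were adjusted by Benjamini-Hochberg over all 24016 probe sets with a threshold of 0.05. The 2-, 4- and 8-cell stages had no replicate, so their arrays were assumed to vary like those of the replicated stages. Each p-value sets the slope over the cleavage arrays against a spread that comes largely from the replicated oocyte, morula and blastocyst arrays. It does not measure how samples of the 2-, 4- or 8-cell stage vary. A gene past the slope test is described by the probe set that passed, and any other gene by its probe set of highest mean signal.

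The 5 arrays were not equally alike. Between the 1-cell arrays, 987 probe sets (4.11%) were 4-fold or more apart, and 1-cell array 1 differed from the 4-, 2- and 8-cell arrays at 1523, 2506 and 3110. From the 4-cell to the 8-cell array, 1933 probe sets were at least 4-fold lower and 958 at least 4-fold higher. Median signal was 42.1 to 55.5 on the 5 arrays. Transcripts of bacterial origin added as labelling controls were near background on 1-cell array 1 (mean log2 of 5.00) and present on the other 4 (8.74 to 9.65). Amplified RNA that is short gives a low ratio of middle to 3' signal, and this ratio was lowest on the 8-cell array for GAPDH (0.0571, against 0.0935 to 0.257 on the other cleavage arrays) and for cyclophilin (0.0115, against 0.0229 to 0.562), and was 0.233 there for eIF-4E, within the range of the other 4 (0.0597 to 0.272). It was also within their range for actin (0.0475, against 0.00588 to 0.0576) and EF1a (0.993, against 0.0351 to 3.06). These 2 ratios say little about RNA length. The 3' signal of actin was only 111 to 248 on the 5 arrays. That of EF1a was 2163 and 1722 at 1 cell and 329, 222 and 120 at 2, 4 and 8 cells. The part of these array differences in the results below was not tested.

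Oocyte markers were present on the 5 arrays, as their labels imply. ZP2, ZP3, ZP4, GDF9, BMP15, NLRP5 and OOEP all had signals of 1122 or more on each cleavage array. Among the markers of other cells, COL1A1 of stroma stayed at 8.05 or less while COL1A2 had 62.6 to 260.3, PRM1 and TNP1 of sperm at 15.9 or less and CYP19A1 of granulosa cells at 34.7 or less. PTX3, made by cumulus cells, had signals of 397 and 490 on the 1-cell arrays and 16.3, 17.9 and 16.3 at 2, 4 and 8 cells. VCAN, another cumulus transcript, had 327 and 988 at 1 cell and 54.3 at 8 cells, and neither slope passed (adjusted p = 0.28 and 0.25, limma). The summed signal of 28 measured cumulus and granulosa markers was 13793 and 16255 on the 1-cell arrays and 10665, 17837 and 17641 at 2, 4 and 8 cells, 18 measured stroma markers (2 to 7 of them over 100) summed to 932 to 2374, 10 sperm markers (1 to 3 over 100) to 725 to 5381, and 19 blood and immune markers to 979 to 1910, without a called slope in any of these lists. HAS2, STAR and TNFAIP6, which cumulus cells are known for, had 8-cell signals of 2003, 4472 and 641.

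Few probe sets passed the slope test, which does not show that few transcripts changed. On simulated data the test recovered 10% of slopes of 0.5 and 54% of slopes of 1. The simulation gave a probe set the same spread on all 15 arrays, so it does not cover a single array that stands apart. Of 24016 probe sets, 43 passed the slope test (0.179%), 13 rising (0.0541%) and 30 falling (0.125%), and at 1 probe set per gene 3 genes rose and 18 fell among 9155. The falling transcripts were abundant at the start, and the rising ones were mostly near background. Their median signal went from 2854 and 2257 on the 1-cell arrays through 1391 at 2 cells and 423 at 4 cells to 67.3 at 8 cells for the falling ones, and from 9.41 and 7.27 through 21.6 and 63.3 to 206 for the rising ones. At an unadjusted p under 0.05, 1148 probe sets rose (4.78%) and 1506 fell (6.27%). The calls rested on the 8-cell array: without it 0 of the 43 passed in limma, 4 others did (784 rising and 825 falling at an unadjusted p under 0.05), the slopes of all 43 kept their sign, and the median slope of the 30 falling went from -1.42 to -1.01. The number of calls was 26 without 1-cell array 1, 10 without 1-cell array 2, 89 without the 2-cell array and 440 without the 4-cell array. It also moved with the arrays that only set the spread, to 17, 15 and 71 without oocyte array 1, 2 or 3, to 17 and 11 without morula array 1 or 2, and to 12 and 19 without blastocyst array 1 or 2. With the presence of labelling controls as a block, 23 passed, and 20 of these were among the 43.

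**Figure D1:**
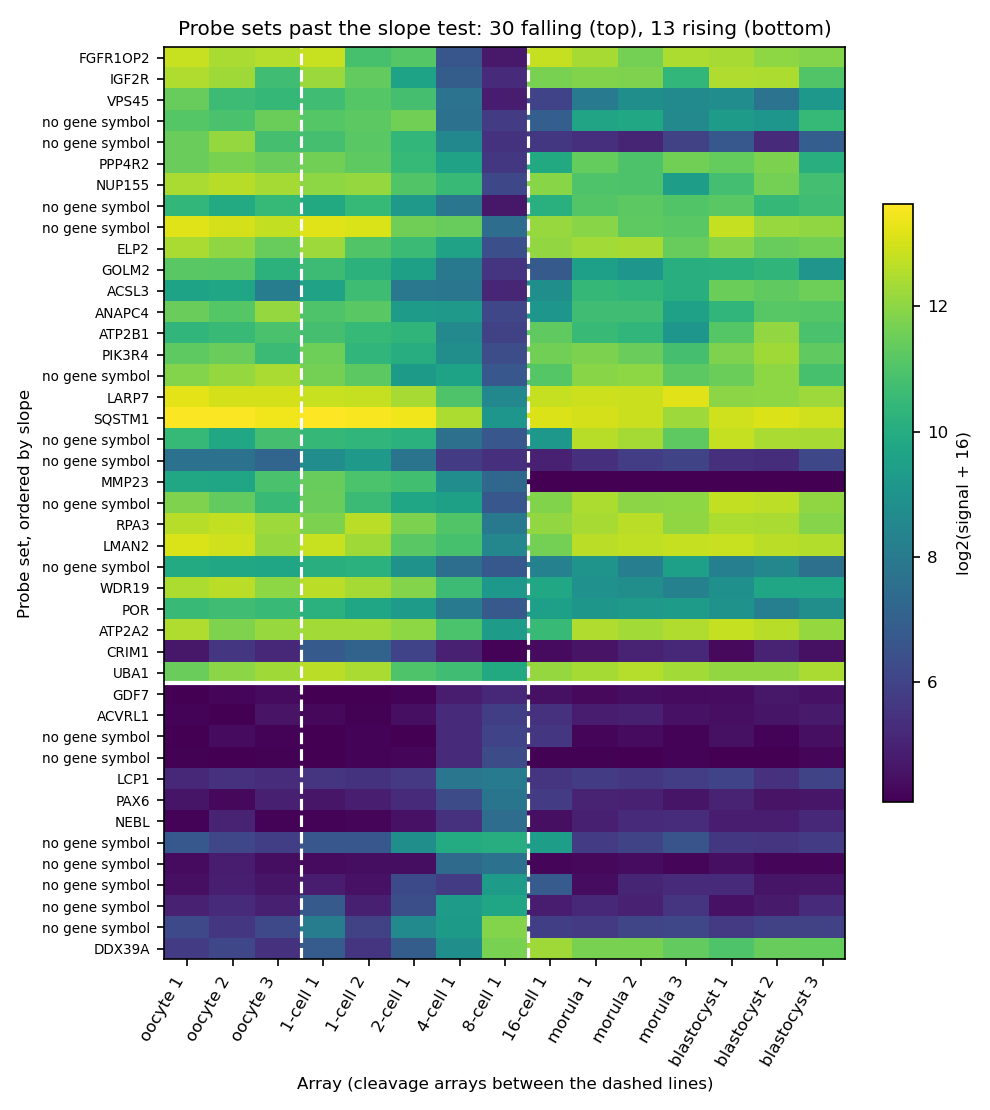
Heat map of log2(signal + 16) for the 43 probe sets past the slope test (rows, ordered by slope; those without a gene symbol are marked so) on all 15 arrays (columns). The 30 falling rows darken from the 1-cell to the 8-cell array and brighten again on the 16-cell array in 20 cases by at least 4-fold; of the 13 rising rows, DDX39A alone stays bright at the morula by the test against the oocyte.

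The named falls are given one by one, ordered by the known roles of the genes, and this order was made after the calls were seen. IGF2R, the receptor that carries lysosomal enzymes and removes IGF2, had signals of 4722 and 2556 on the 1-cell arrays, 770 at 2 cells, 103 at 4 cells and 22.6 at 8 cells. The levels went down at every stage, and the 8-cell array lay below all 14 others. Its slope was -2.23 (SE 0.28, adjusted p = 0.0135, limma), a 90.5-fold fall from the 1-cell mean, and the 16-cell array was back at 3340. VPS45, a regulator of vesicle fusion at endosomes, had 1660 and 2205 at 1 cell, 1813 at 2 cells, 197 at 4 cells and 11.96 at 8 cells (slope -1.99, SE 0.29, adjusted p = 0.0237). Unlike IGF2R it stayed low, with 49.2 at 16 cells and 244 to 441 in morulae, below the 1396 to 2706 of oocytes (log2 difference -2.34, adjusted p = 7.28e-03). LMAN2, a lectin that escorts glycoproteins out of the endoplasmic reticulum, fell by 1.23 per division (SE 0.17) from 7217 and 4912 to 348, and GOLM2, a Golgi membrane protein, by 1.57 (SE 0.23) from 1571 and 1185 to 29.9. PIK3R4, the regulatory subunit of the class III phosphoinositide kinase, fell by 1.44 (SE 0.22) and had signals of 2932 and 1318, 1025, 429.5 and 65.6 in the order of stages.

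A probe set of each of 2 calcium pump genes fell. ATP2B1, the pump of the plasma membrane, had 1814 and 1402 at 1 cell, 1288 at 2 cells, 363 at 4 cells and 45.4 at 8 cells (slope -1.48, SE 0.25, adjusted p = 0.0433). ATP2A2, the pump of the endoplasmic reticulum, went through 5110.1 and 5105, 4157 and 1929.5 to 629 (slope -0.95, SE 0.15, adjusted p = 0.0350). On both probe sets the large steps came after the 2-cell stage. Morula arrays were at 531 to 1445 for ATP2B1 and at 5069 to 5761 for ATP2A2, and neither passed the test of morula against oocyte. A brighter ATP2A2 probe set did not show this fall, with 10803 and 10416 at 1 cell, 8832 at 2 cells, 9487 at 4 cells and 9706 at 8 cells (slope -0.05, SE 0.12). The other ATP2A2 probe sets had slopes of -0.16 (SE 0.43) and -0.04 (SE 0.28), and those of ATP2B1 -0.30 (SE 0.51) and 0.03 (SE 0.07).

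LARP7, which binds the 7SK RNA and so the supply of the elongation factor P-TEFb, had 7219.7 and 7080.0 on the 1-cell arrays, 5314 at 2 cells, 2063 at 4 cells and 357 at 8 cells. This was among the most regular series, with close 1-cell arrays and a lower level at each stage (slope -1.33, SE 0.16, adjusted p = 0.0135). It was at 7181 in the 16-cell array and at 7562 to 9391 in morulae. NUP155, a scaffold protein of the nuclear pore, fell by 1.71 (SE 0.30, adjusted p = 0.0477) from 4129 and 4435 to 55.6. ELP2, a subunit of Elongator, which modifies transfer RNA, fell by 1.60 (SE 0.23) from 4836 and 2089 to 68.9, and PPP4R2, a regulatory subunit of protein phosphatase 4, by 1.72 (SE 0.27) from 3103 and 2447 to 34.0. RPA3, the smallest subunit of the single-strand DNA binding protein RPA, fell by 1.26 (SE 0.22, adjusted p = 0.0477) from 3463 and 6384 to 228.

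UBA1, the main ubiquitin-activating enzyme, had 6398 and 5526 at 1 cell, 2024 at 2 cells, 1645 at 4 cells and 940 at 8 cells, most of the fall coming at the first division (slope -0.87, SE 0.14, adjusted p = 0.0350). SQSTM1, the p62 receptor that links ubiquitin to autophagy, held at 12707, 11868 and 11035 through 2 cells, was at 5575 at 4 cells and fell to 532 at 8 cells (slope -1.32, SE 0.22, adjusted p = 0.0372). It alone among the 30 falling probe sets also departed from a straight line (adjusted p = 0.0291), and the 16-cell array was at 8924. ANAPC4, a subunit of the anaphase-promoting complex, had 2059 and 2328, 627, 583 and 53.4 (slope -1.49, SE 0.24, adjusted p = 0.0350). UBA1 was the 1 member past the test among 62 measured genes of the proteasome and of ubiquitin ligases, a list with 26 slopes above 0 and a median slope of -0.04.

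Among the remaining falls, FGFR1OP2 had the steepest slope of all, -2.47 (SE 0.27, adjusted p = 0.0126), although its 1-cell arrays were far apart at 7274 and 1836. It had 2231 at 2 cells, 85.2 at 4 cells and 10.98 at 8 cells, and 7086 at 16 cells. MMP23, a metalloproteinase of reproductive tissues, had 2726 and 1923, 1690.5, 416 and 142, and was listed at 1.00 on the 16-cell array and on every morula and blastocyst array, a value at which 2.56% of all signals sit. The other MMP23 probe set went the opposite way after cleavage. It had 2.58 to 8.15 in oocytes, 248 at 16 cells and 34.7 to 63.1 in morulae (cleavage slope -0.03, SE 0.17). WDR19, of the transport machinery of cilia, fell by 1.08 (SE 0.17) and stayed low, at 295 to 463 in morulae against 4150.4 to 6395 in oocytes. POR, the electron donor of the cytochromes P450, fell by 1.06 (SE 0.17) from 1149 and 821 to 92.3 and was lower in the morula than in the oocyte as well (log2 difference -1.39, adjusted p = 0.0208). ACSL3, which activates long-chain fatty acids, fell by 1.54 (SE 0.25) and CRIM1 by 0.94 (SE 0.13), the latter from signals of only 94.1 and 124.

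The falling probe sets were chosen by a slope that rests on the 8-cell array, so their order over cleavage and their place against that array are given only as a description. Of the 30, 26 were lower at each successive stage (570 of all probe sets were, 2.37%), on 26 the 8-cell array was the lowest of all 15, and for 20 the 16-cell array was at least 4-fold above it. The 16-cell array was within 2-fold of the oocyte mean for 15 (50.0%, against 64.7% of all). On the morula arrays, which the slope did not use, 17 were within 2-fold of the oocyte mean (56.7%, against 65.6% of all), 10 were lower by the test of morula against oocyte (33.3%, against 7.16% of all) and 1 was higher. The 30 were also bright in oocytes (median signal 2974, against 55.2 of all), and a dim probe set has little room to fall. The share of 33.3% is thus not set against probe sets of like signal. The called probe sets with a gene name that were lower in the morula were those of VPS45, NUP155, SQSTM1, MMP23, WDR19 and POR.

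**Figure D2:**
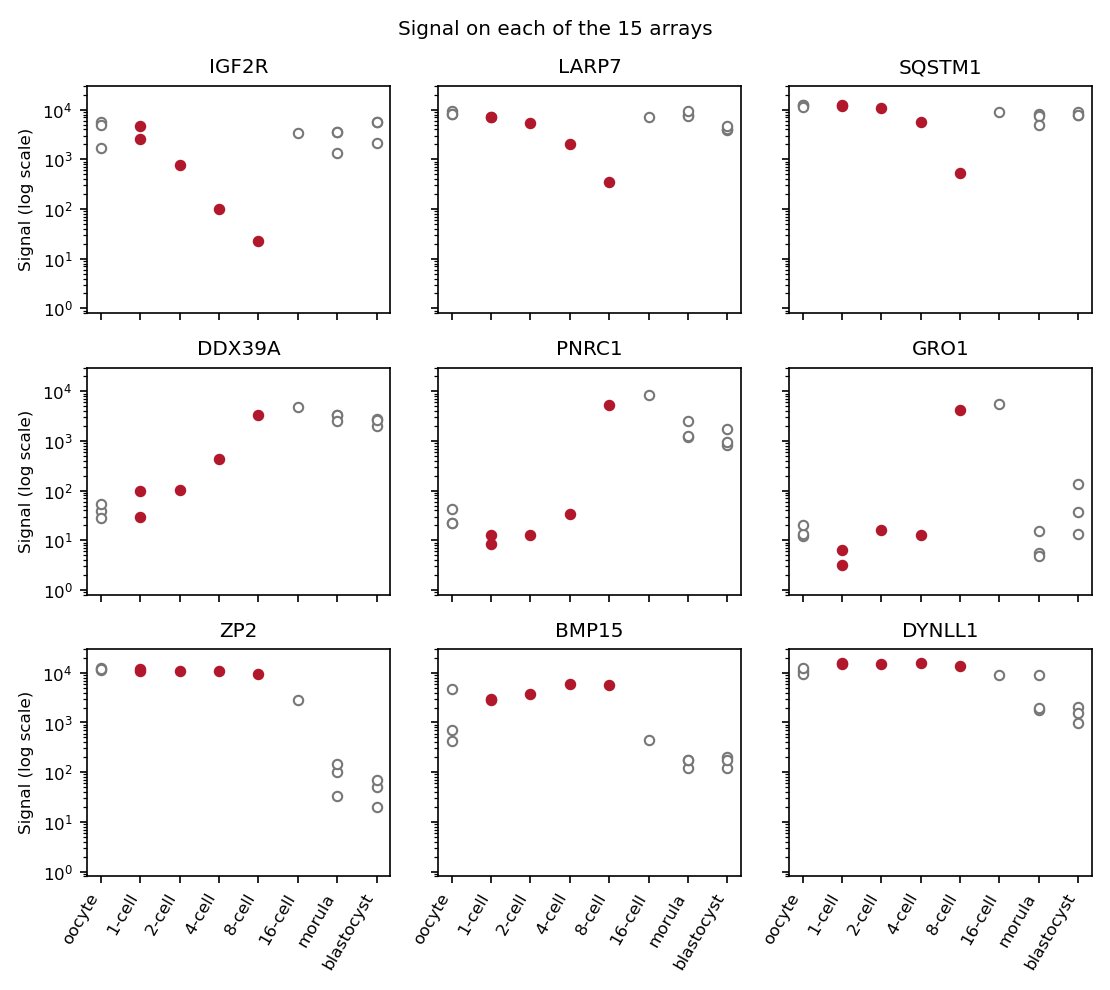
Signal on a log scale (vertical) at each stage (horizontal) for 9 genes, 1 point per array, with the 5 cleavage arrays filled and the other 10 open. IGF2R, LARP7 and SQSTM1 fall to 22.6, 357 and 532 at 8 cells and are at 3340, 7181 and 8924 at 16 cells; DDX39A climbs in steps; PNRC1 and GRO1 are low through 4 cells and high at 8 and 16 cells; ZP2 and DYNLL1 stay near their 1-cell level through 8 cells and BMP15 is at 5556 there.

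Other probe sets of the same genes did not pass. Of the 27 named genes among the 43 probe sets, 16 had a further probe set, 28 in all, and 0 of these 28 passed the slope test in limma. Slopes had the sign of the called probe set at 18 of the 28, and 4 of these had an unadjusted p under 0.05. These 4 belonged to ACSL3 (slope -0.38, SE 0.16, from 2456 and 2727 at 1 cell to 1013 at 8 cells), PIK3R4 (-0.51, SE 0.20), PAX6 (0.44, SE 0.13) and GDF7 (0.66, SE 0.21), with adjusted p of 0.39, 0.35, 0.20 and 0.26. The second probe sets of IGF2R, NUP155 and SQSTM1 were dim already at 1 cell, at 70.2 and 9.85, 22.2 and 19.7, and 50.5 and 48.6, so that a fall like that of the called probe sets could not be seen there. Some brighter ones did not follow the called probe set: beside that of ATP2A2 above, VPS45 had 625 and 344, 1356, 2284 and 326 (slope 0.09, SE 0.32) and LARP7 462 and 1030.5, 1175, 654 and 684 (slope -0.04, SE 0.28). The other CRIM1 probe sets did not fall steadily and were higher at 4 than at 2 cells. They had 1137 and 941, 126, 1203 and 116 (slope -0.68, SE 0.43), 846 and 1023, 336, 1732 and 315 (-0.26, SE 0.37), and 409 and 119, 12.9, 679 and 8.22 (-0.60, SE 0.55). The falls above are thus those of the probe sets named, and not of every probe set of these genes.

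The rising transcripts were led by a helicase. DDX39A, an RNA helicase of messenger RNA export, had signals of 99.6 and 29.5 at 1 cell, 104 at 2 cells, 442 at 4 cells and 3376 at 8 cells. The level was above both 1-cell arrays from the 2-cell stage on and had its largest step at 8 cells (slope 1.76, SE 0.23, adjusted p = 0.0171, limma). It was held at 4881 in the 16-cell array and at 3081 ± 451 (SD, n = 3) in morulae, against 40.0 ± 12.6 (SD, n = 3) in oocytes, a log2 difference of 5.80 (SE 0.43, adjusted p = 3.01e-05). Of the 13 rising probe sets it was the only one higher in the morula than in the oocyte by the test (7.69%, against 11.8% of all probe sets).

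The other named rises were small in signal on the probe sets that passed. LCP1, an actin-bundling protein best known from blood cells, had 30.2 and 29.1, 35.4, 210 and 248 in the order of stages and 29.5 at 16 cells (slope 0.94, SE 0.15, adjusted p = 0.0350). A probe set of PAX6, a transcription factor of eye and brain, had 9.41 and 13.6, 21.6, 63.3 and 206 (slope 0.97, SE 0.12, adjusted p = 0.0135), and NEBL, an actin-binding protein of muscle, 2.26 and 2.38, 7.61, 27.7 and 164 by 1 of its probe sets (slope 1.01, SE 0.14, adjusted p = 0.0237). Brighter NEBL probe sets had 266 and 1068, 1307, 740 and 2104 (slope 0.53, SE 0.36), and 318 and 21.3, 2436, 22.1 and 32.7 (slope -0.63, SE 0.64). The called probe sets of ACVRL1, a receptor of the TGF-beta family, and GDF7, a ligand of that family, reached only 42.0 and 20.3 at 8 cells. A brighter GDF7 probe set had 77.3 and 140 at 1 cell and 536.5 at 8 cells (slope 0.66, SE 0.21, not past the test). Another had 204 and 232 at 1 cell and 205 at 8 cells (slope -0.04, SE 0.17). As a description that the choice by slope largely fixes, 10 of the 13 rising probe sets were higher at each successive stage (578 of all probe sets were, 2.41%), on 12 the 8-cell array was the highest of all 15, and for 8 the 16-cell array was at least 4-fold below it. Only 5 of the 43 calls, IGF2R, FGFR1OP2, LARP7, PAX6 and 1 probe set without a symbol, passed without each of the other cleavage arrays in turn, and they did not pass without the 8-cell array.

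Larger increases were concentrated in the step to 8 cells and were not called as slopes. PNRC1, a nuclear receptor coactivator, had 12.9 and 8.54 at 1 cell, 12.6 at 2 cells, 34.6 at 4 cells and 5329 at 8 cells (slope 2.13, SE 0.45, adjusted p = 0.0984). GRO1, a chemokine, had 6.35 and 3.21, 15.8, 12.8 and 4263 (slope 2.07, SE 0.48, adjusted p = 0.12), was at 5520.2 at 16 cells and had no more than 15.7 in morulae. RSRP1 had 9.68 and 4.74, 73.0, 1.38 and 4414. These 3 departed from a straight line (adjusted p = 0.0170, 0.0243 and 0.00970), all with the 8-cell array high. KCTD20, the protease gene ADAMTS1, the mitochondrial creatine kinase CKMT2 and ANKRD50 showed the same step, from at most 48.6 on the other 4 arrays to 2200.0 to 5407 at 8 cells, with neither test passed. These steps are those of the brightest probe sets. Other KCTD20 probe sets had 79.7, 42.3 and 16.95 at 8 cells, the last with 1173 at 2 cells. Second probe sets of RSRP1, ADAMTS1 and CKMT2 had at most 12.2 at 8 cells, and that of ANKRD50 had 41.8. Some further probe sets of PNRC1 and GRO1 reached 5735 and 487 there, and others only 6.34 and 27.4. TKT, the transketolase of the pentose phosphate pathway, FTO, an RNA demethylase, and SIL1, which helps the chaperone BiP, had signals of 1218, 2469.6 and 512 already at 4 cells, but TKT was also at 3382 on oocyte array 3.

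By count, the 8-cell array stood farthest from the others. Against the 1-cell mean it was at least 4-fold higher at 930 probe sets (3.87%) and at least 4-fold lower at 2011 (8.37%). On it, 410 probe sets (1.71%) were at least 4-fold above every other cleavage array and 613 (2.55%) at least 4-fold below, against 307 above and 241 below on the 2-cell array, 139 and 41 on the 4-cell array, and 23 to 144 on either 1-cell array. What was high only at 8 cells was often high later: 169 of the 410 (41.2%) were higher in the morula than in the oocyte by the test, against 11.8% of all probe sets, and 223 (54.4%) were at least 4-fold above the oocyte mean on the 16-cell array, against 12.7% of all. For the sets high on the 2-cell and 4-cell arrays these shares were 14% and 14.4% at the morula, and 19.5% and 22.3% on the 16-cell array; for 1-cell arrays 1 and 2 they were 9.09% and 10.4%, and 14.3% and 22.2%. Of the 613 low at 8 cells, 132 (21.5%) were lower in the morula by the test, against 7.16% of all, and 75 (12.2%) were higher. The 613 were bright in oocytes (median signal 935, against 55.2 of all), so the 21.5% is not set against probe sets of like signal. For the sets low on the 2-cell and 4-cell arrays, with oocyte medians of 688 and 867, the share lower in the morula was 11.2% and 12.2%. For the small sets low on 1-cell arrays 1 and 2 it was 8.70% and 0%. Leaving out any oocyte, morula or blastocyst array kept the share of the 410 between 34.6% and 43.7%, against 8.67% to 13.0% of all, and that of the 613 between 15.5% and 25.3%, against 4.91% to 8.84% of all. These groups were picked on the cleavage arrays after their values were seen and are a description.

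**Figure D3:**
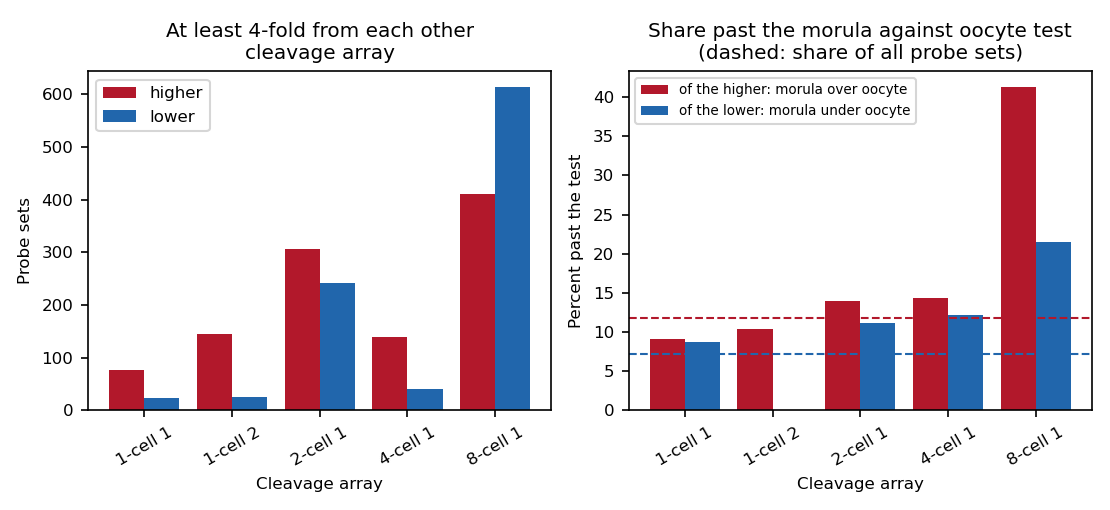
Left, the number of probe sets at least 4-fold above (red) or below (blue) all other cleavage arrays on each of the 5 cleavage arrays. Right, the percentage of those higher sets that were higher in the morula, and of those lower sets that were lower in the morula, than in the oocyte by limma; dashed lines mark the 11.8% and 7.16% of all probe sets, and the 8-cell bars stand at 41.2% and 21.5%.

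Departures from a straight line were more frequent than slopes. The test passed at 701 probe sets (2.92%). For each, the stage farthest from the median of the other cleavage stages was taken, which is not a distance from the line. It was 2 cells for 251 (high) and 74 (low), 8 cells for 110 and 83, and 4 cells for 140 and 21. The count was 1144 without oocyte array 3, 415 and 405 without morula array 1 or 2, and 437 without blastocyst array 1. Of the 8 genes with the smallest p-values, 6 were high on 1 cleavage array. ADGRG7, an adhesion receptor, had 915 at 4 cells and was listed at 1.00 on the other 14 arrays. PLPPR2, the adrenergic receptors ADRA2A and ADRB1, and the sorting receptor SORCS3 had 337, 608, 170 and 93.8 at 2 cells, with at most 37.3 on any other cleavage array, and the protease HTRA4 had 303 at 4 cells and at most 10.0 on the other 4. The other two were low on 1 array: EEF1B2, a translation elongation factor, had 14.6 at 2 cells against 1212 to 3970 on the other cleavage arrays, and TM9SF2, an endosomal membrane protein, 21.4 at 8 cells against 6747 to 9416.

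No list had more than 1 member past the adjusted test in either direction. Over all 9155 genes 4.43% rose and 7.36% fell at an unadjusted p under 0.05 and the median slope was -0.02, so that each list is set beside these values. The largest median was that of nuclear-encoded oxidative phosphorylation, the enzyme chain that makes ATP in mitochondria: -0.29 over 76 measured genes, 62 of them with a slope below 0, 17 (22.4%) falling and 1 rising at an unadjusted p under 0.05, and 0 past the adjusted test. ATP5F1B, the catalytic subunit of ATP synthase, had 1262 and 1603 at 1 cell, 729 at 2 cells, 252 at 4 cells and 191 at 8 cells (slope -0.998, SE 0.18, adjusted p = 0.0541). COX4I1, of cytochrome c oxidase, had 723 and 1463, 273, 197 and 86.0 (slope -1.10, SE 0.24, adjusted p = 0.0984), and UQCRC1, of complex III, 521 and 897, 983, 39.5 and 6.77 (adjusted p = 0.11). All 3 were higher in the morula than in the oocyte, by 3.34, 3.68 and 4.29 on the log2 scale, and were at 6572, 8412 and 1764.5 on the 16-cell array. Without the 8-cell array the median slope of the list was -0.06, with 43 of 76 below 0 and 5 falling.

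Lists of redox defence, DNA replication and nuclear transport leaned the same way. Of 42 redox genes 8 (19.0%) fell and 0 rose at an unadjusted p under 0.05 (0 past limma's adjusted test), with a median slope of -0.21. NQO1, a quinone reductase, had 1421 and 1051 at 1 cell, 718 at 2 cells, 625 at 4 cells and 124 at 8 cells. Of 58 replication genes 8 (13.8%) fell, RPA3 past the adjusted test, and 1 rose, and of 52 nuclear import and export genes 8 (15.4%) fell, NUP155 past the test, and 1 rose (medians -0.14 and -0.12). The mismatch repair gene MSH6 had 2259 and 2528, 1856, 273 and 373 (adjusted p = 0.0541) and the export receptor of importin alpha, CSE1L, 1829.6 and 897, 651, 403 and 67.4 (adjusted p = 0.0694). Under median centring these 4 lists kept medians below 0, from -0.05 to -0.22, while that of all genes became 0.05. Median centring keeps the 8-cell array, and the slopes of the redox, replication and transport lists without it are not given here. Their median signals did not fall steadily and were lowest at 8 cells. Those of redox genes were 419 and 625 at 1 cell and 297, 658 and 187 at 2, 4 and 8 cells. For replication they were 1551 and 1163, 928, 992 and 440, and for transport 1199 and 1170, 1497, 1318 and 491.

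**Figure D4:**
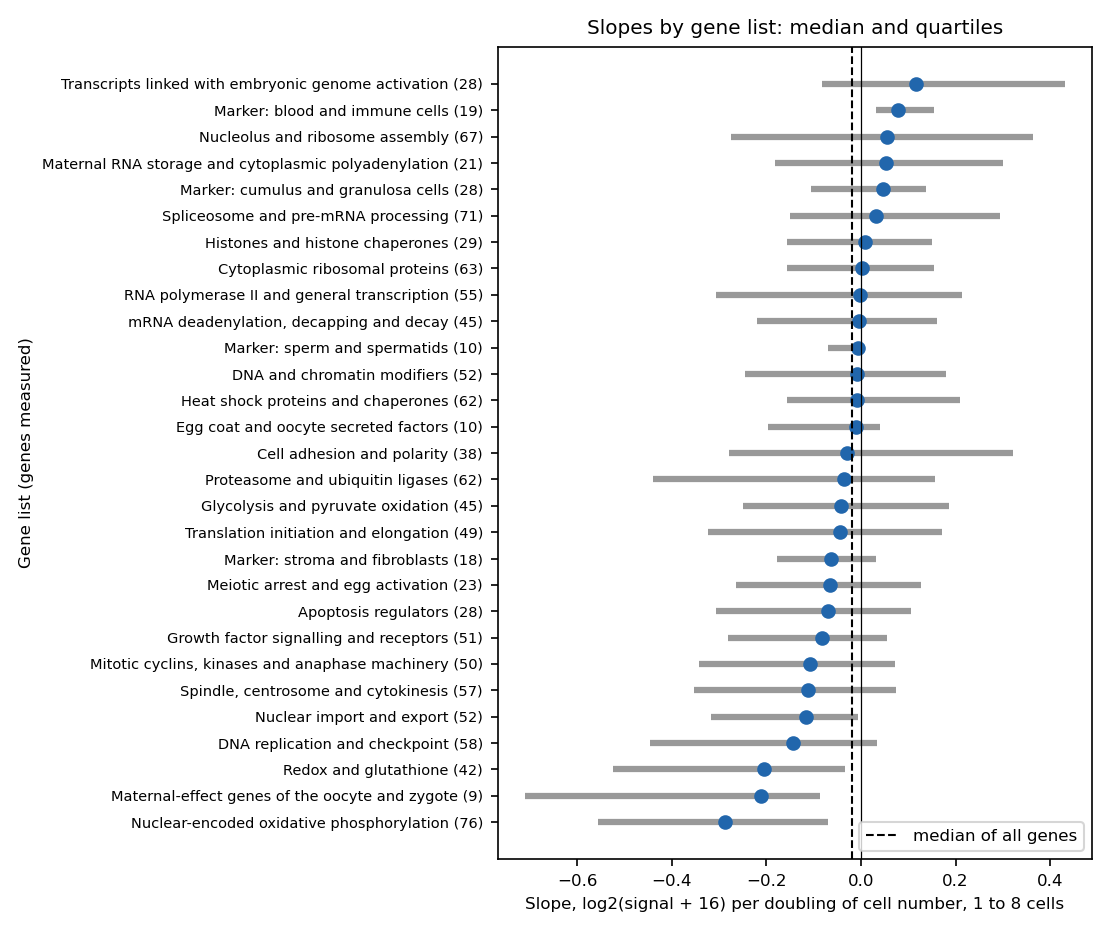
Median slope (point) and middle quartiles (bar) per gene list, with the number of genes measured in brackets; the horizontal axis is the change of log2(signal + 16) per doubling of cell number and the dashed line is the median of all genes, -0.02. Oxidative phosphorylation lies lowest at -0.29 and the list of genome activation highest at 0.12, and most medians lie near the line.

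The list of transcripts linked with embryonic genome activation leaned upward: of 28 measured, 7 (25%) rose and 2 fell at an unadjusted p under 0.05, 0 passed the adjusted test, and the median slope was 0.12. POU5F1, the pluripotency factor OCT4, had 3878 and 2210.4 at 1 cell, 3384 at 2 cells, 5043 at 4 cells and 6687 at 8 cells (slope 0.40, SE 0.14, adjusted p = 0.31). KLF4, another factor of pluripotent cells, had 1054 and 2830.1, 992, 2209 and 8550.5, and ATF3, a stress-response factor, 292 and 230.4, 862, 1180.3 and 2226. SUPT4H1, of the elongation factor DSIF, stood at 193 to 264 through 4 cells and at 9333 at 8 cells. Without the 8-cell array the list's median was 0.03, with 3 rising and 1 falling.

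By slope, the machinery of protein synthesis leaned neither way. Of 63 cytoplasmic ribosomal protein genes 3 (4.76%) rose and 5 (7.94%) fell at an unadjusted p under 0.05, close to the shares of all genes, with a median slope of 0.00. Their median signal was 768 and 1924 on the 1-cell arrays, so that these differed from each other more than from the 1363, 1231 and 1175 at 2, 4 and 8 cells, and it was 8793 at 16 cells. Among 49 translation factors 1 rose and 2 fell (median slope -0.04). Their median log2 difference of the 8-cell array from the 1-cell mean was -0.44, against -0.08 of all genes. The nucleolar list had 5 risers and 4 fallers of 67, and GNL3, a nucleolar GTPase, had 378 and 323, 862, 1965 and 2453 (slope 0.98, SE 0.21, adjusted p = 0.0971).

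Egg coat transcripts stayed near their 1-cell signal through the cleavage divisions. ZP2, a protein of the egg coat, had 11706 and 10979 at 1 cell and 10801, 10794 and 9661 at 2, 4 and 8 cells (slope -0.07, SE 0.21). ZP4 had 8553.5 and 7782 and then 8448, 8276 and 7709 (slope -0.02, SE 0.17), and BMP15, a growth factor of the oocyte, had a higher signal at 4 and 8 cells without passing the test, with 2783.5 and 3019.9 and then 3681, 5838 and 5556 (slope 0.36, SE 0.33). None of the 10 measured genes of this list had an unadjusted p under 0.05, and 7 of them were lower in the morula than in the oocyte by the test. KPNA7, the oocyte importin, UHRF1, which guides DNA methylation, MOS, the kinase of meiotic arrest, and the spindle genes TACC3 and DYNLL1 had slopes of -0.11, -0.09, -0.05, -0.03 and -0.04, with standard errors of 0.16 to 0.33. The list of maternal-effect genes, which the egg stores for the embryo, leaned downward: of 9 measured, 8 had a slope below 0, 3 (33.3%) fell and 1 rose at an unadjusted p under 0.05, 0 passed limma's adjusted test, and the median slope was -0.21 (-0.20 without the 8-cell array, with 0 falling). UCHL1, a ubiquitin hydrolase of the egg, had 9438 and 8032, 7407, 6831 and 61.3 (slope -1.84, SE 0.63, adjusted p = 0.28), and was at 5382 on the 16-cell array. TRIM28, a corepressor that protects imprints, was lower from the 2-cell stage on, with 229 and 154, 66.4, 56.3 and 29.5 (slope -0.71, SE 0.29, adjusted p = 0.37). DNMT1, the maintenance DNA methyltransferase, had 647 and 361, 476, 331 and 144 (slope -0.50, SE 0.23, adjusted p = 0.45), and ZFP36L2, an RNA-decay factor, rose at an unadjusted p under 0.05 from 19.2 and 13.3 to 369.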

How the data were processed

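The authors deposited 1 table of signal intensity for 24128 probe sets on 15 arrays, on a linear scale from 0.39 to 20788. How probe signals were summarised and scaled is not given in the sources used here. Per the labels' protocols, RNA was amplified in 3 rounds and labelled with biotin. Control probe sets (112) were left out. A platform table and RefSeq (ARS-UCD2.0) gave 1 gene symbol to 13292 probe sets (9155 genes), several to 86 and none to 10638, and no sequence was used. With limma 3.58.1 in R 4.3.3, log2(intensity + 16) was fitted with 1 slope over the 5 cleavage arrays and a mean for each other stage, with 9 residual degrees of freedom and eBayes with a trend. Departure from a line was an F test of whether the means of the cleavage stages alone left a straight line, in a model with a mean for each of the 8 stages. Calls used a Benjamini-Hochberg adjusted p under 0.05.

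On simulated data of 24016 probe sets with 200 changed, the slope test recovered 10% at a slope of 0.5, 54% at 1, 88% at 1.5 and 78% at 2, with 8 false calls. The simulated noise was normal, with 1 spread per probe set on all 15 arrays. These rates thus hold only where single arrays vary like replicates. Depth does not apply to arrays, whose number limits the precision. Named genes were the 15 largest slopes in each direction (filled with ones that did not pass, and kept to genes above the median signal of 47.0), up to 4 members of each of 29 gene lists past the test or else the 2 with the highest signal, a short list of known genes and the 8 smallest p-values of departure. Others, such as POR, UBA1, UCHL1, TRIM28 and the list members named for small p-values, were chosen after their values were seen. The members and lists were chosen with earlier results of these data known. Alternatives changed the pseudocount, scaling, filter, trend, block and arrays used. Python 3.11.15 with matplotlib 3.10.9 made the plots.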

Additional observations from a re-analysis of the deposited data

How the results depend on the processing

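The 43 slopes kept their sign under every alternative in which they were tested (34 of them were tested after the dimmest probe sets were left out). Counts of calls were less stable. Against 43, the slope test passed 137 without the arrays numbered 3 of the other stages (40 of the 43 among them), 364 on the number of cells instead of its log2 (42 of the 43), 23 with labelling controls as a block and 0 with the 5 cleavage arrays alone in limma (1046 rising and 1322 falling at an unadjusted p under 0.05). It passed 38 to 58 under other pseudocounts, scalings, filter or trend. Leaving out 1 array at a time gave 4 to 440. The departure test, with 701 calls, passed 265 with a pseudocount of 1, 1120.0 with 64, 352 without the dimmest probe sets and 2936 without the arrays numbered 3, and 405 to 1144 leaving out 1 array at a time. Morula against oocyte was called for 12 of the 43, and for 9 to 15 under its alternatives. The cause of these shifts was not tested. Alternatives that leave out oocyte, morula or blastocyst arrays for the slope, and the block for the other tests, were chosen after seeing the data. No paired analysis was possible because the 2-, 4- and 8-cell arrays carry no replicate number. With 1 array at each of those stages, a departing array and a departing stage cannot be told apart.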
